A study of Mus musculus with 12 samples.

Results

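Plexins and semaphorins form a family of cell surface receptors and their ligands. The genes described here were 5 plexin genes (Plxna1, Plxna4, Plxnb2, Plxnc1 and Plxnd1) and 3 class 4 semaphorin genes (Sema4a, Sema4b and Sema4d). They were chosen by name, with earlier results of the same data known, and matched to Ensembl identifiers in gene counts of mouse bone marrow cultures. These were 8 of the 41388 genes counted, and all 8 passed the filter on low counts that left 13030 genes for testing. Plxna4 had by far the widest range among them: it was 15.2-fold higher with RANKL than without it in Asxl2-intact cells, and 2.88-fold higher in cells in which Asxl2 was deleted by LysM Cre.

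The cells came from C57BL/6 mice. Flox mice carried the floxed Asxl2 gene, which encodes a chromatin protein of the additional sex combs family, and the LysM Cre positive mice, labelled KO, carried Cre as well. LysM Cre is driven by the lysozyme gene of myeloid cells, so other cell types in a culture can keep Asxl2, and no group with Cre alone was among the samples. Bone marrow cells of both genotypes grew for 5 days in alpha MEM with 10% FBS, were lifted with trypsin and plated again; for the next 2 days the medium held 2% M-CSF, either without RANKL or with 50 ng/ml of it. M-CSF is the growth factor of macrophages, and RANKL is the cytokine that turns their precursors into osteoclasts, the cells that resorb bone. The M-CSF cultures are labelled bone marrow macrophages (BMM) and the RANKL cultures osteoclasts (OC), which gave 4 groups of 3 libraries: flox BMM, KO BMM, flox OC and KO OC. Whether replicate libraries stem from different mice is not stated in the labels, so the spread behind the p-values may be only technical.

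Plexins are single-pass receptors whose inner part acts on small GTPases, and through them on adhesion and the actin cytoskeleton. Semaphorins are secreted or membrane-bound proteins, first known for steering growing axons, and class 4 semaphorins are membrane-bound. In bone, Sema4d made by osteoclasts is known to restrain osteoblasts through Plexin-B1, and Plexin-A1 is known to work with Trem2 and Tyrobp in osteoclasts and dendritic cells.

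The libraries held 18489873 to 21667237 reads counted to genes. Levels are given as CPM, the standard count of a gene's reads relative to all counted reads of its library, scaled between libraries by edgeR's TMM factors. Asxl2 was lower in the KO libraries, at 15.1 ± 0.265 against 93.1 ± 3.01 CPM (SD, n = 3 libraries per group throughout) in BMM and 13.7 ± 1.24 against 73.4 ± 2.27 CPM in OC. The summed level of 8 macrophage markers was 10732 to 10914 CPM in flox BMM and 9349 to 9448 CPM in KO BMM. It was 5121 to 5193 CPM in flox OC and 4979 to 5035 CPM in KO OC, so macrophage transcripts stayed abundant in the OC cultures. The summed level of 10 osteoclast markers was 234 to 243 CPM in flox BMM, 206 to 210 CPM in KO BMM, 743 to 765 CPM in flox OC and 379 to 396 CPM in KO OC. Among them Acp5 and Nfatc1 averaged 132 and 350 CPM in flox OC, whereas the osteoclast genes Calcr and Oscar were at or near 0 in every group. Of the 8 osteoclast markers tested, 7 rose with RANKL and 1 fell in each genotype. The marker that fell, Itgb3, averaged 3.996 CPM in flox BMM, 1.448 in flox OC, 1.541 in KO BMM and 1.003 in KO OC. Unlike the sum, Nfatc1 and Ctsk were higher in KO BMM, at 116 and 35.98 CPM, than in flox BMM, at 99.3 and 30.4 CPM. Summed markers of stromal cells were 198 to 217 CPM in flox BMM, 63.1 to 70.4 in KO BMM, 166 to 170 in flox OC and 51.2 to 63.4 in KO OC. In that order of groups, those of endothelial cells were 40.3 to 46.3, 30.6 to 33.8, 28.7 to 29.6 and 18.7 to 20.2 CPM. Those of platelets were 344 to 409, 48.5 to 53.1, 135 to 141 and 16.3 to 17.5 CPM in that order. Dendritic cell markers summed to 129 to 178 CPM over all libraries. Most of that sum was Itgax, which averaged 163, 132, 161 and 146 CPM in flox BMM, KO BMM, flox OC and KO OC. By group mean, Fscn1 reached at most 8.55 CPM and the rest of that list at most 1.39 CPM. Each of the B cell, T cell and neutrophil lists summed to at most 8.22 CPM in each library. In such bulk samples, fewer cells of a type and less RNA per cell cannot be told apart.

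**Figure D1:**
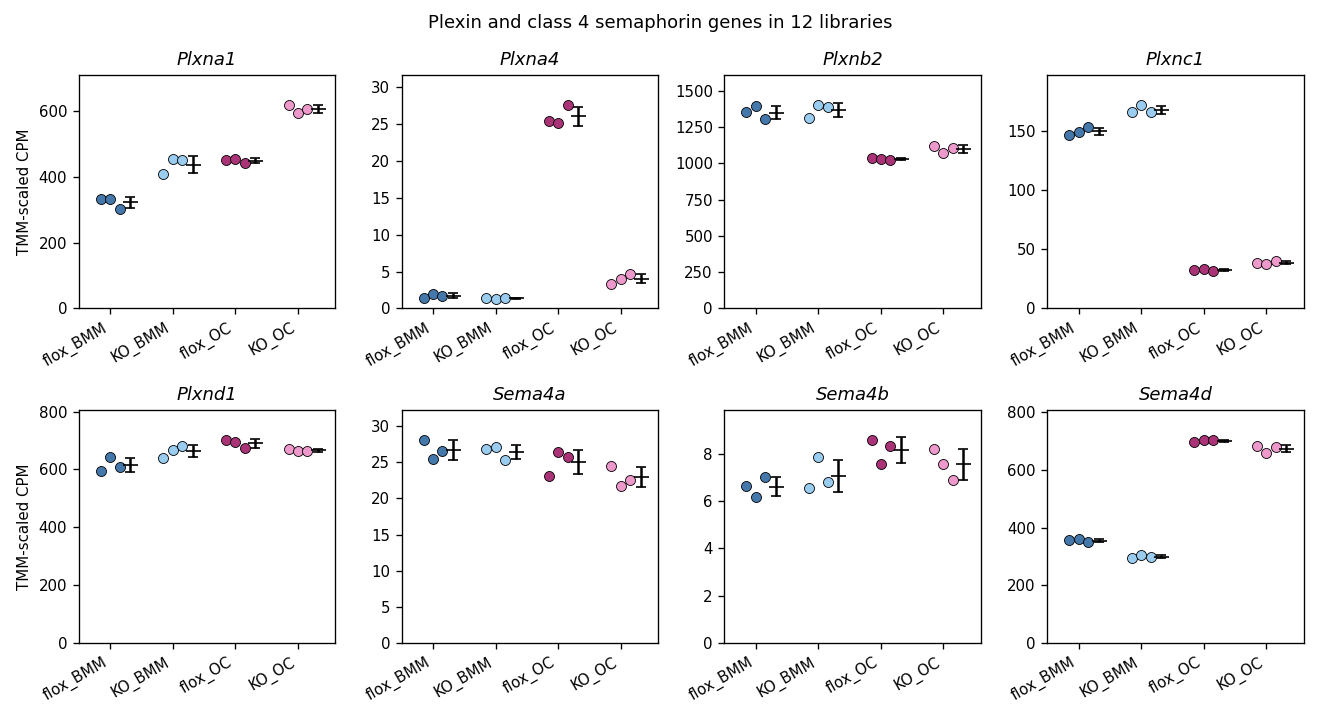
Level of each of the 8 genes in each of the 12 libraries, in TMM-scaled CPM on axes that start at 0, by group; points are libraries, and the mark beside them is the group mean with its SD. The Plxna4 points of flox OC, at 25.1 to 27.6 CPM, stand far above those of KO OC, at 3.38 to 4.61 CPM, and Plxnc1 is low in both OC groups.

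Per kilobase of exon, which allows genes to be compared, Plxnb2 was the most abundant of the 5 plexins in all 4 groups, with a level of 189 ± 6.08 CPM per kilobase in flox BMM. It made up 57.4% of the summed plexin level per kilobase in flox BMM, 54.2% in KO BMM, 48.7% in flox OC and 48.3% in KO OC. Plxnd1 was the next, at 25.9%, 26.0%, 32.4% and 29.0% of that sum, and Plxna1 followed at 10.8%, 13.7%, 16.8% and 21%. Plxnc1 held 5.79% and 6.05% in the BMM groups and 1.4% and 1.54% in the OC groups, and Plxna4 never held more than 0.683%, its share in flox OC. The 5 plexins summed to 330 ± 9.99, 354 ± 12.3, 296 ± 3.63 and 319 ± 5.48 CPM per kilobase in flox BMM, KO BMM, flox OC and KO OC. Among the 3 semaphorins Sema4d held 88.2% to 94.9% of the summed level per kilobase, which was 61.3 ± 0.813, 52.7 ± 0.985, 115 ± 0.718 and 110 ± 2.17 CPM per kilobase in the same order.

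**Figure D2:**
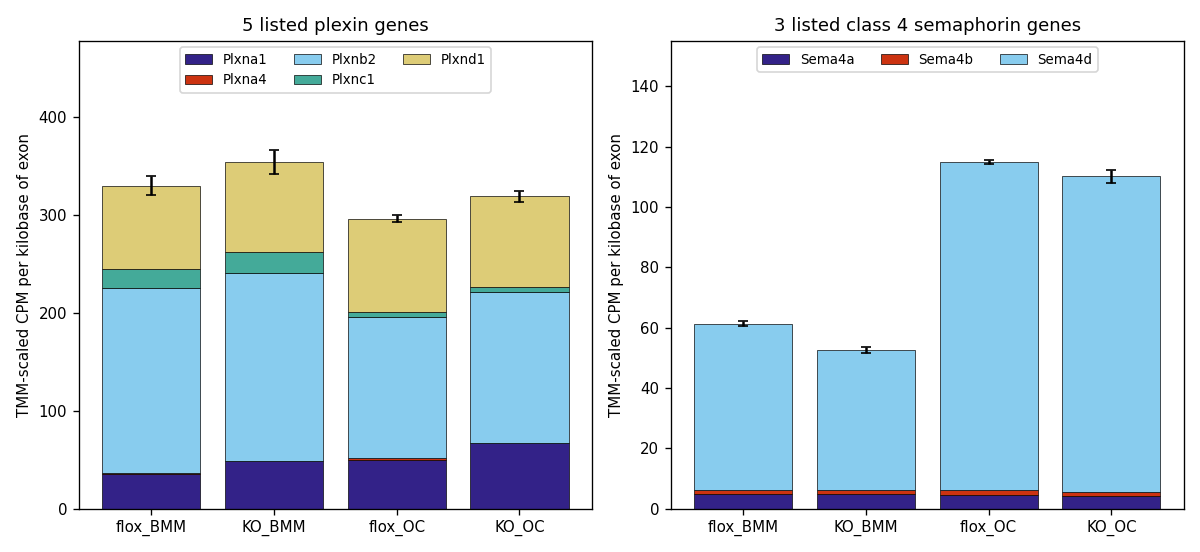
Stacked mean levels of the 5 plexin genes (left) and the 3 class 4 semaphorin genes (right) in each group, in TMM-scaled CPM per kilobase of exon; error bars are the SD of the sum over 3 libraries. The semaphorin stack, nearly all Sema4d, is 115 in flox OC against 61.3 in flox BMM, and Plxnb2 is the tallest plexin segment in all 4 groups.

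Plxna4 encodes Plexin-A4, a receptor that acts with neuropilins for class 3 semaphorins and binds class 6 semaphorins directly. Its gene lies on the minus strand of chromosome 6 (GRCm38 chr6:32144268-32588192). The flox BMM libraries gave 1.36, 2.01 and 1.74 CPM and the KO BMM libraries 1.47, 1.30 and 1.4 CPM, from 24 to 39 counts per library. With RANKL, the flox OC libraries reached 25.4, 25.1 and 27.6 CPM from 509 to 566 counts, and the KO OC libraries 3.38, 4.01 and 4.61 CPM from 66 to 92 counts. Every KO OC library lay above every BMM library and far below every flox OC library, whereas the 2 BMM groups overlapped. RANKL raised Plxna4 by a log2 fold change of 3.92 ± 0.11 (SE) in flox cells (adjusted p = 1.87e-33, edgeR's quasi-likelihood test with Benjamini-Hochberg adjustment over all tested genes) and by 1.53 ± 0.17 in KO cells (adjusted p = 8.21e-11). The difference between these RANKL effects, KO minus flox, was -2.40 ± 0.25 (edgeR adjusted p = 1.54e-10). Only 0.146% of tested genes had a larger absolute difference.

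Under RANKL, Plxna4 was 6.49-fold lower in KO than in flox cells, a log2 fold change of -2.70 with a 95% interval of -2.88 to -2.52 (edgeR adjusted p = 4.63e-29). Of all tested genes, 0.138% had a larger absolute change in that comparison. Without RANKL the genotypes differed by -0.30 ± 0.22 (edgeR adjusted p = 0.286), which did not pass the threshold of 0.05. The platelet, stromal, osteoclast and endothelial marker sums were also lower in KO OC than in flox OC, averaging 16.9 against 139, 58.7 against 168, 386 against 752 and 19.7 against 29.0 CPM, and their part in the Plxna4 difference was not tested. The expressed genes nearest to Plxna4 on either side, Mkln1 at 627457 bases and Chchd3 at 202784 bases, had log2 fold changes of only -0.05 and -0.04 between KO OC and flox OC. Plxna4 shares 0.854% of its exonic bases with the opposite-strand gene Plxna4os3, which had 0 counts in every library. Counting did not use strand, so this cannot show how many reads fell in the shared bases.

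By the pattern over the 12 libraries, the gene nearest to Plxna4 among 9356 candidates was Socs3, an inhibitor of cytokine receptor signalling. The root mean square difference between the 2 centred log2 patterns was 0.37, against 1.64 for the spread of the Plxna4 pattern itself. Jdp2, a transcription factor of the AP-1 family, came second at 0.53. Socs3 averaged 4.13 CPM in flox BMM, 2.30 CPM in KO BMM, 39.0 CPM in flox OC and 9.86 CPM in KO OC. Jdp2 averaged 9.99, 10.7, 163 and 56.8 CPM in the same groups. All 3 genes were thus highest in flox OC and next in KO OC, an order that choosing genes by nearest pattern favours. Between the BMM genotypes Socs3 had a log2 fold change of -0.83 (edgeR adjusted p = 1.14e-05). Jdp2 and Plxna4 did not pass there (edgeR adjusted p = 0.393 and 0.286). The difference of RANKL effects was -1.15 for Socs3 and -1.62 for Jdp2, both smaller in size than for Plxna4.

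**Figure D3:**
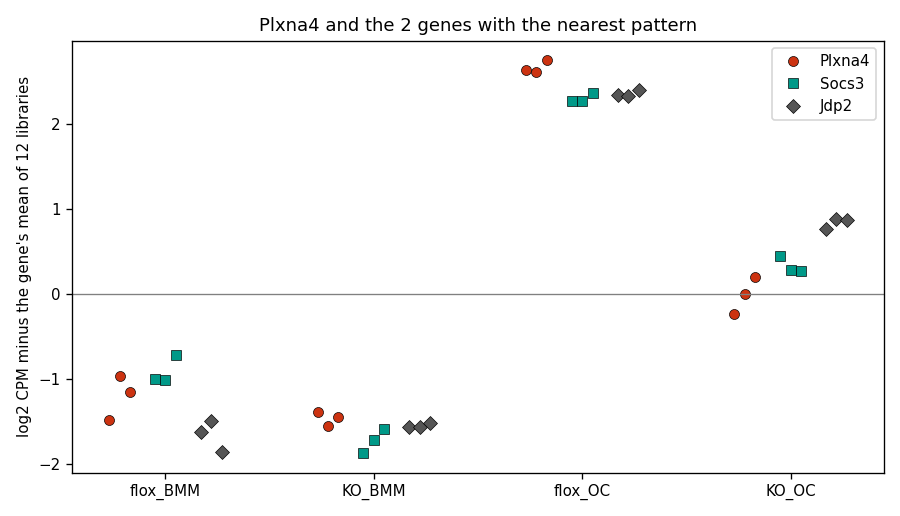
Log2 CPM of Plxna4, Socs3 and Jdp2 in each library, each centred on the gene's own mean over the 12 libraries; points are libraries, arranged by group. All 3 genes have their highest points in flox OC and their next highest in KO OC, and Plxna4 drops further between these groups than the other two.

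Plxna1 encodes Plexin-A1, and its gene lies on the minus strand at chr6:89316316-89362613. Its level was 332, 333 and 303 CPM in flox BMM and 407, 454 and 450 CPM in KO BMM. With RANKL it was 452, 454 and 442 CPM in flox OC and 617, 595 and 606 CPM in KO OC. All KO libraries lay above all flox libraries of the same treatment, while KO BMM and flox OC overlapped. Plxna1 rose with loss of Asxl2 by 0.44 ± 0.036 on the log2 scale in BMM (edgeR adjusted p = 5.15e-11) and by 0.43 ± 0.035 in OC (adjusted p = 3.99e-11). It also rose with RANKL, by 0.48 in flox cells and 0.47 in KO cells (edgeR adjusted p = 1.36e-12 and 1.34e-12). The RANKL effects of the genotypes differed by -0.01, with a 95% interval of -0.11 to 0.10 (edgeR adjusted p = 0.951). Of the exonic bases of Plxna1, 10.7% overlap Gm26811 on the opposite strand. Counting did not use strand, so reads there cannot be assigned. Gm26811 itself had 13 to 27 counts in any library, which cannot show how many reads fell in the shared bases.

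Plxnb2 encodes Plexin-B2, a receptor for several class 4 semaphorins, at chr15:89155549-89171120 on the minus strand. It stood at 1304 to 1391 CPM in flox BMM, 1314 to 1399 CPM in KO BMM, 1021 to 1034 CPM in flox OC and 1069 to 1121 CPM in KO OC. The BMM groups overlapped, and both lay above KO OC, which lay above flox OC. Plxnb2 fell with RANKL by 0.39 on the log2 scale in flox cells and by 0.32 in KO cells (edgeR adjusted p = 1.08e-17 and 1.9e-14). In OC it rose with loss of Asxl2 by 0.09 ± 0.028 (edgeR adjusted p = 0.00481), a call that was lost without KO OC replicate 1 (0.08, adjusted p = 0.0513).

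Plxnc1 encodes Plexin-C1, the receptor for the membrane-anchored semaphorin Sema7a, at chr10:94790866-94944578 on the minus strand. Flox BMM libraries held 147, 149 and 153 CPM and KO BMM libraries 166, 172 and 166 CPM. Flox OC libraries held 32.1, 33.0 and 32 CPM and KO OC libraries 38.3, 37.2 and 40.0 CPM. No 2 groups overlapped, and within each treatment the KO libraries were the higher ones. Plxnc1 fell with RANKL by 2.21 ± 0.039 on the log2 scale in flox cells, or 4.62-fold, and by 2.12 in KO cells (edgeR adjusted p = 5.04e-42 and 8.32e-42). It rose with loss of Asxl2 by 0.17 ± 0.032 in BMM and by 0.25 ± 0.047 in OC (edgeR adjusted p = 2.53e-05 and 1.85e-05). Macrophage markers moved with the same treatment, all 8 falling with RANKL in flox cells and 7 of 8 in KO cells, and their part in the Plxnc1 change was not tested.

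Plxnd1 encodes Plexin-D1, the receptor for Sema3e, at chr6:115954811-115995005 on the minus strand. Its range was the narrowest of the 5 plexins: 595, 642 and 608 CPM in flox BMM, 640, 667 and 681 CPM in KO BMM, 701, 696 and 673 CPM in flox OC and 671, 663 and 664 CPM in KO OC. Only flox OC stood above the next group without overlap. Plxnd1 rose with RANKL by 0.17 on the log2 scale in flox cells (edgeR adjusted p = 1.02e-06). In KO cells the effect was 0.01, with a 95% interval of -0.05 to 0.06 (edgeR adjusted p = 0.844). The difference between these RANKL effects was -0.16 ± 0.040 (edgeR adjusted p = 0.00229). The KO BMM level was 0.11 ± 0.029 higher on the log2 scale than in flox BMM (edgeR adjusted p = 0.00177), although the libraries overlapped, and the OC genotypes differed by -0.05 (adjusted p = 0.144). Scaling by library size alone raised the RANKL effects of Plxnd1 to 0.34 in flox and 0.14 in KO cells (edgeR adjusted p for KO = 1.2e-05). That scaling also moved the median of all tested genes, by 0.168 in flox and 0.135 in KO cells.

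RefSeq promoter windows (GRCm38.p6, the 250 bases before a transcript start) were matched for 6 of the 8 genes. Those of Plxnc1 and Plxnd1 are printed because both hold the same motif at 2 places. Capitals mark GAGGAA, a core that the macrophage factor PU.1 recognises. It also occurs in windows of Sema4a, in one of them at 2 places, and of Sema4b, but in none of Plxnb2 or Sema4d. The printed windows were picked after the matches were seen, and a link of the motif to the RANKL response was not tested. The Plxnc1 start lies 267 bases from the 5' end of the counted gene.
Plxnc1, chr10:94944846-94945095, minus strand: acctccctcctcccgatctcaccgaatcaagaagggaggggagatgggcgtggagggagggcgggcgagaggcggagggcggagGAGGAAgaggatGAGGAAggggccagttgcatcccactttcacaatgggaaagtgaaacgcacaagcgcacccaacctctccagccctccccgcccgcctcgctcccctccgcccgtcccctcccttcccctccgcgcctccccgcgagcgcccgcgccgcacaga
Plxnd1, chr6:115995006-115995255, minus strand: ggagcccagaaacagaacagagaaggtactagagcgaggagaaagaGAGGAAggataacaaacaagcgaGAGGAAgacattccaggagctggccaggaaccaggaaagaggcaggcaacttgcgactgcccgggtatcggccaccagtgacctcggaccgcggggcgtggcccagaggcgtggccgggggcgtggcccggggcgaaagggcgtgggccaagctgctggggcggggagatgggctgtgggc
GAGGAA, searched on both strands, began 166 and 154 bases before the Plxnc1 start and 204 and 181 bases before the Plxnd1 start, and it occurs in 23.3% of all 32851 windows. The other motifs searched were TGANTCA for AP-1 factors, TGGAAA for NFAT, and TCACGTG and TCATGTG for MiT factors, held by 6.75%, 18.6%, 3.13% and 3.25% of windows, and neither printed window holds any of them. A match describes letters only and shows no binding.

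Sema4d encodes a membrane-bound semaphorin that binds Plexin-B1, Plexin-B2 and, on lymphocytes, Cd72. Its gene lies at chr13:51701246-51793747 on the minus strand. Flox BMM libraries held 356, 361 and 349 CPM and KO BMM libraries 296, 305 and 297 CPM. Flox OC libraries held 698, 704 and 703 CPM and KO OC libraries 681, 659 and 681 CPM. The 4 groups did not overlap, and the KO libraries were the lower ones in both treatments. Sema4d rose with RANKL by 0.98 ± 0.027 on the log2 scale in flox cells, or 1.97-fold, and by 1.17 in KO cells, or 2.25-fold (edgeR adjusted p = 4.13e-34 and 5.91e-37). The RANKL effect was larger in KO cells by 0.19 ± 0.038 (edgeR adjusted p = 0.000155). Sema4d fell with loss of Asxl2 in BMM by 0.25 ± 0.028 on the log2 scale (edgeR adjusted p = 2.12e-10). In OC the genotypes differed by -0.06 (edgeR adjusted p = 0.0678), and DESeq2 put the same size of difference just under the threshold (adjusted p = 0.0489), as did edgeR on the 2 OC groups alone (adjusted p = 0.0112).

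Sema4a, a semaphorin known from immune cells that binds Plexin-D1 and B-type plexins, lies at chr3:88435959-88461182 on the minus strand. Its libraries ranged from 25.4 to 28.1 CPM in flox BMM, 25.4 to 27.1 CPM in KO BMM, 23.1 to 26.4 CPM in flox OC and 21.8 to 24.5 CPM in KO OC. Each group overlapped the next in the order of means. Sema4a fell with RANKL in KO cells by 0.21 ± 0.061 on the log2 scale (edgeR adjusted p = 0.00255), a call lost under scaling by library size alone (-0.07, adjusted p = 0.302). The change in flox cells was -0.09 (edgeR adjusted p = 0.167), or 0.08 under that scaling (adjusted p = 0.241), and the difference of the RANKL effects did not pass the test (-0.11, adjusted p = 0.381). In OC the genotypes differed by -0.13 (edgeR adjusted p = 0.0942), which passed without flox OC replicate 1 (adjusted p = 0.0265) or without KO OC replicate 1 (adjusted p = 0.0396).

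Sema4b, a membrane semaphorin first known from neurons, lies at chr7:80186841-80226394 on the plus strand and was the lowest of the 3 per kilobase. It ranged from 6.18 to 7.01 CPM in flox BMM, 6.57 to 7.85 CPM in KO BMM, 7.56 to 8.57 CPM in flox OC and 6.87 to 8.20 CPM in KO OC. Sema4b rose with RANKL in flox cells by 0.31 ± 0.10 on the log2 scale (edgeR adjusted p = 0.00665), or by 0.48 with scaling by library size alone. KO cells gave a change of 0.09 for this gene (edgeR adjusted p = 0.436), or 0.23 under that other scaling (adjusted p = 0.0458). Neither genotype comparison passed the test, at 0.10 in BMM and -0.11 in OC (edgeR adjusted p = 0.484 and 0.376).

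Loss of Asxl2 changed 4 of the 8 genes in BMM, against 39.9% of all tested genes called in that comparison. Plxna1, Plxnc1 and Plxnd1 rose, 3 of 8 where 19.3% of tested genes rose, and Sema4d fell, 1 of 8 where 20.6% fell. In OC it changed 4 of the 8, against 41.3% of tested genes. Plxna1, Plxnb2 and Plxnc1 rose, 3 of 8 against 21.4%, and Plxna4 fell, 1 of 8 against 19.9%. RANKL changed 7 of the 8 in flox cells, against 74.8% of tested genes, with 5 rising against 37.0% and 2 falling against 37.8%. In KO cells RANKL changed 6 of the 8, against 70.5% of tested genes, with 3 rising against 35.5% and 3 falling against 35.0%. With scaling by library size alone 7 of the 8 were called in KO cells, 5 rising and 2 falling. The difference of RANKL effects was called for Plxna4, Plxnd1 and Sema4d, 3 of 8 against 21.9% of tested genes. The called difference was negative in 2 of them, against 9.53% of tested genes, and positive in Sema4d alone, against 12.3%. The 3 libraries of one group all lay above those of the other for 3 of the 8 genes between the BMM genotypes, 6 between the OC genotypes, 7 with RANKL in flox cells and 6 with RANKL in KO cells. The same held for 46.6%, 51.3%, 75.2% and 73.4% of all tested genes. With so few genes, shares of this size lie near those of all tested genes in the genotype and RANKL comparisons. The median log2 fold change of the 8 was 0.06 in BMM and -0.06 in OC for genotype, 0.24 and 0.05 for RANKL in flox and KO cells, and -0.06 for the difference, with medians of all tested genes between -0.0036 and 0.011. The 2 genotype comparisons and the 2 RANKL comparisons share libraries with each other.

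**Figure D4:**
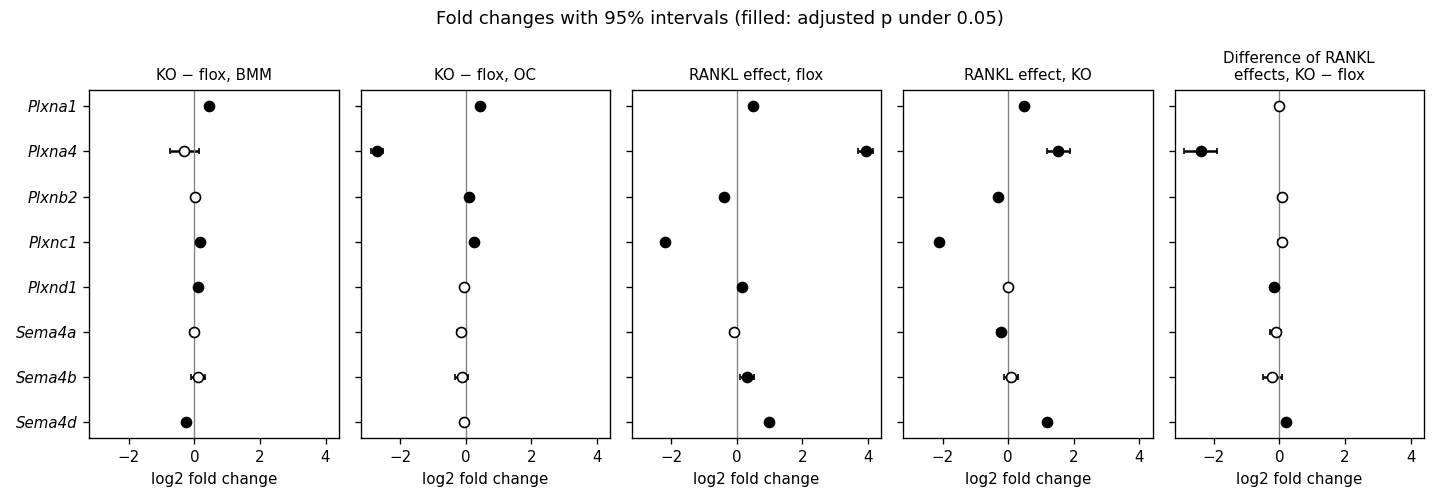
Log2 fold change of each of the 8 genes in the 5 comparisons, with 95% intervals as bars where they exceed the marker; filled markers passed the test at an adjusted p under 0.05 (edgeR). Plxna4 lies at 3.92 with RANKL in flox cells and at -2.70 between KO OC and flox OC, whereas all genotype changes of the other genes stay within 0.44 of 0.

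Of the 4 other plexins, 3 were tested. Plxna2, a close relative of Plxna1, averaged 29.4, 34.3, 37.8 and 55.6 CPM in flox BMM, KO BMM, flox OC and KO OC, and rose with loss of Asxl2 by 0.22 in BMM and 0.56 in OC on the log2 scale (edgeR adjusted p = 5e-04 and 5.48e-15). Plxna3 fell with loss of Asxl2 by 0.80 and 0.64 on that scale. Plxnb3 averaged 2.26 CPM in flox BMM and 0.255 CPM in flox OC and fell with RANKL by 3.12 in flox cells (edgeR adjusted p = 2.63e-13). Plxnb1, the best known receptor of Sema4d, averaged 0.117 to 0.349 CPM over the groups and was not tested.

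Of the 3 other class 4 semaphorins 2 were tested, and Sema4c, a ligand of Plexin-B2, fell with RANKL by 1.86 in flox and 1.49 in KO cells on the log2 scale (edgeR adjusted p = 5.95e-25 and 4.53e-22). Sema4g did not pass in any of the 4 comparisons between groups. Of 14 semaphorins of other classes 4 were tested. Sema3c, Sema6b and Sema7a rose with RANKL in both genotypes, and Sema6d, a ligand of Plexin-A1, fell in both, by 2.87 and 2.42 on the log2 scale. Sema3c, a secreted ligand of neuropilin receptors, had the largest rise of these, by 2.20 in flox and 1.86 in KO cells, and fell with loss of Asxl2 by 0.82 in OC (edgeR adjusted p = 3.12e-18). Sema7a, the Plexin-C1 ligand, averaged 1.29, 0.585, 2.27 and 1.26 CPM and fell with loss of Asxl2 by 1.14 in BMM and 0.85 in OC on the log2 scale. Medians of the 4 genes were -0.39 and -0.33 for genotype in BMM and OC and 0.69 and 0.65 for RANKL in flox and KO cells.

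Of 15 coreceptors and alternative semaphorin receptors 12 were tested, of which 3 rose and 8 fell with RANKL in flox cells, where 37.0% of all tested genes rose and 37.8% fell, and 2 rose and 7 fell in KO cells, against 35.5% and 35.0%. With loss of Asxl2, 2 rose and 8 fell in BMM, against 19.3% and 20.6% of all tested genes, and 3 rose and 6 fell in OC, against 21.4% and 19.9%. Whether this list differs from other genes was not tested. The medians for these 4 comparisons were -0.45, -0.38, -0.21 and -0.21. The neuropilins, which pair with A-type plexins, moved in opposite directions: Nrp1 averaged 674, 713, 87.4 and 127 CPM and Nrp2 857, 768, 2349 and 1562 CPM in the 4 groups. Met, a receptor tyrosine kinase that associates with B-type plexins, rose with RANKL by 5.38 in flox and 5.67 in KO cells. It fell with loss of Asxl2 by 1.89 in BMM and 1.61 in OC (edgeR adjusted p = 2.97e-06 and 1.54e-28). Met averaged 1.26, 0.328, 52.7 and 17.3 CPM in flox BMM, KO BMM, flox OC and KO OC, so its BMM levels were low. Its difference of RANKL effects was 0.29 (edgeR adjusted p = 0.613). Trem2 and Tyrobp, the Plexin-A1 partners, averaged 916 and 787 CPM in flox BMM and 411 and 578 CPM in flox OC. Cd72 fell with loss of Asxl2, by 0.92 in BMM and 0.51 in OC on the log2 scale (edgeR adjusted p = 5.49e-15 and 5.03e-09).

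Of 39 listed intracellular effectors and regulators of plexins 37 were tested, and their counts stand beside calls for 74.8% and 70.5% of all tested genes with RANKL in flox and KO cells, and for 39.9% and 41.3% with loss of Asxl2 in BMM and OC. With RANKL 8 rose and 23 fell in flox cells (median -0.23), or 12 and 17 with scaling by library size alone, and 11 rose and 18 fell in KO cells (median -0.21), or 15 and 17 under that scaling. With loss of Asxl2, 6 rose and 11 fell in BMM (median -0.03), or 10 and 10 under that other scaling, and 11 rose and 9 fell in OC (median 0.05). Tiam1, an activator of Rac, rose with RANKL by 1.47 in flox cells, and Rap2a, a Ras family GTPase, fell by 2.06 on the log2 scale (edgeR adjusted p = 1.21e-32 and 1.29e-34). Rnd1, a small GTPase that binds plexins, had a RANKL effect of 1.2 in flox and 2.17 in KO cells, a difference of 0.98 (edgeR adjusted p = 0.00916).

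**Figure D5:**
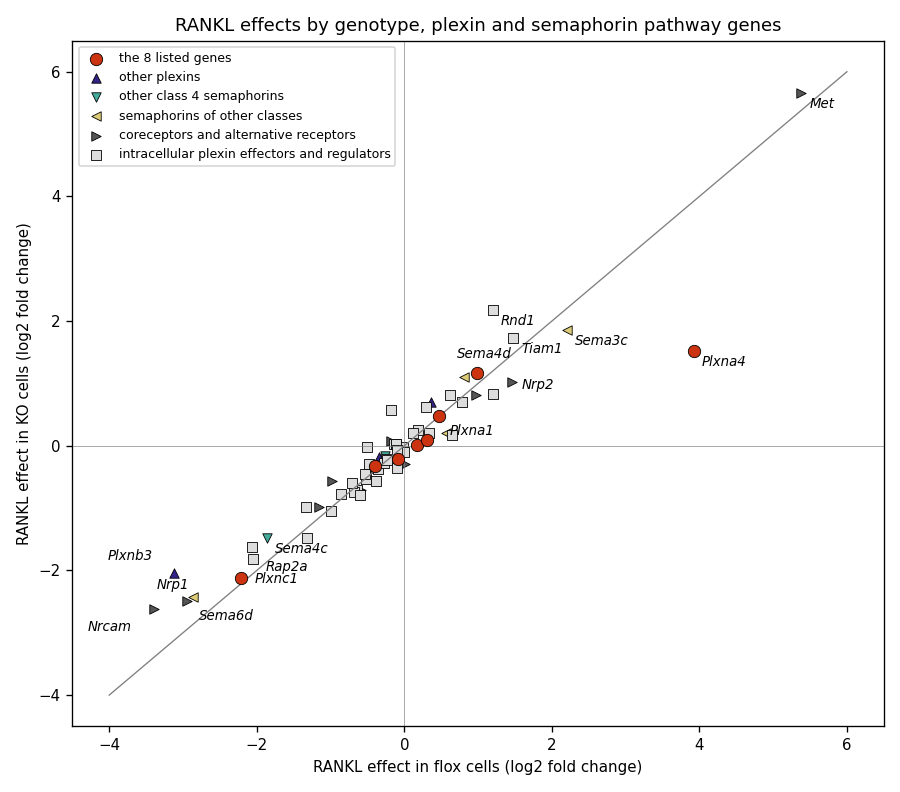
RANKL effect in KO cells against that in flox cells (both log2 fold changes) for the 8 genes and the tested genes of the other plexin and semaphorin lists; each point is a gene and the line marks equal effects. Plxna4, at 3.92 in flox and 1.53 in KO cells, lies furthest below the line of all genes plotted.

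By the same measure of pattern, the 2 genes nearest to each of the other members were Pls3 and Arfgef3 for Plxna1, Wasf2 and Skiv2l for Plxnb2, Snx24 and Arsb for Plxnc1, and Spns1 and Lsm14b for Plxnd1. For the semaphorins they were Cep41 and Atp6v1b2 for Sema4a, Spryd4 and Mtx1 for Sema4b, and Wrb and Nfat5 for Sema4d. In root mean square difference, the nearest gene lay 0.06 log2 units from Plxna1, 0.03 from Plxnb2, 0.07 from Plxnc1 and 0.05 from Sema4d. The spreads of their own patterns were 0.33, 0.18, 1.09 and 0.55. For Plxnd1, Sema4a and Sema4b the nearest gene lay at 0.03, 0.06 and 0.07, with own spreads of 0.07, 0.11 and 0.14. The 0.37 between Plxna4 and Socs3 was larger than all of these distances, but the Plxna4 pattern had the widest spread, 1.64. Nfat5, a transcription factor, averaged 81.5, 67.0, 163 and 153 CPM in flox BMM, KO BMM, flox OC and KO OC, against 355, 300, 702 and 674 CPM for Sema4d. Among the 8 genes themselves, Plxnd1 and Sema4b lay nearest to each other, at 0.12, and Plxna4 and Plxnc1 furthest apart, at 2.63. Plxnd1 and Sema4b varied little, with own spreads of 0.07 and 0.14, so their nearness does not show a shared pattern.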

How the data were processed

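Gene expression was measured by RNA-seq from oligo-dT selected RNA in 12 libraries, 3 in each of 4 groups taken from the genotype and treatment labels. The submitters' processing notes name STAR 2.0.4b, the Subread package with featureCounts, and the GRCm38 build. The deposited values are raw counts per gene over exons, made by featureCounts 1.4.5-p1 with Ensembl release 76 and strand setting 0, per the file headers; without strand, reads of overlapping genes on opposite strands cannot be told apart. Symbols came from the GENCODE mouse release 21 annotation and matched 40254 of 41388 identifiers; the rest held 0.136% of counts and stayed in the library sizes. One listed symbol, Rgnef, was not found.

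Counts were tested with edgeR 4.0.16 in R 4.3.3: TMM scaling, filterByExpr with a minimum count of 10 (13030 genes kept), and a robust quasi-likelihood fit of 4 group means over all 12 libraries, with 5 contrasts. P-values were adjusted by Benjamini-Hochberg over all tested genes, and a gene was called under 0.05. Standard errors were derived from the F statistic and intervals cover 95%. The biological coefficient of variation was 2.54%, which lets small changes pass the test. Chi-square per degree of freedom between libraries of a group was 1.23 to 5.05, so no library was taken for a duplicate of another. The procedure was tested on simulated data.

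Named genes were all 8 members, Asxl2, up to 4 called genes with the largest change and at least 1 CPM from each pathway list and comparison (where none was called, up to 2 with the highest level), and the 2 genes nearest in pattern to each member (smallest root mean square difference of centred log2 CPM with a prior count of 2, among genes averaging at least 5 CPM). Marker genes, genomic neighbours and overlap partners are given only for context, and Trem2, Tyrobp, Plxnb1 and the change of Cd72 in OC were added for their known link to the members. Members and lists were chosen with earlier results of these data known. Alternatives were scaling by library size alone, RLE size factors, DESeq2 1.42.0, no filter on low counts, only the groups compared, a replicate block, and leaving out each library in turn.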

Additional observations from a re-analysis of the deposited data

Results flagged for a closer look

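The RANKL effect differed between genotypes for 3 of the 8 genes, by the test of that difference in edgeR. For Plxna4 the difference, KO minus flox, was -2.396 on the log2 scale (SE 0.251, adjusted p = 1.54e-10), with every KO OC library below every flox OC library. For Plxnd1 it was -0.1601 (SE 0.0402, adjusted p = 0.00229), where the largest and smallest group means differed by only 1.12-fold. For Sema4d it was 0.1876 (SE 0.0379, adjusted p = 0.000155), with flox and KO libraries further apart in BMM than in OC. Groups of 3 libraries were too small for the check for single deviating libraries.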

How the results depend on the processing

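Of 520 values of single genes under the alternatives, 511 stayed on their side of the threshold, 2 lost the call and 7 gained it; no called value changed sign. Values that passed under neither setting did change sign in some alternatives: the Plxna1 difference (up to 0.03), Plxnb2 and Sema4a for genotype in BMM, Plxnd1 for RANKL in KO cells, and Sema4a for RANKL in flox cells (0.08 with library size alone). The number of the 8 genes called was 4 in the BMM genotype comparison, 7 for RANKL in flox cells and 3 for the difference under each alternative run; it was 4 to 6 for genotype in OC and 6 to 7 for RANKL in KO cells. No pairing by the library numbers in the titles was seen: 0 of 18 same-numbered pairs had a correlation of deviations over 0.1 (range -0.0353 to 0.0397), and 7 of 18 correlated best with their own number. With 3 libraries per group, this cannot exclude that libraries of equal number share a mouse or a batch. With the replicate block, 4, 4, 7, 6 and 3 genes were called in the 5 comparisons, as without it, and Plxna4 differed by -2.70 between the OC genotypes. Scaling by library size alone moved the share of upward calls over all genes from 48.3% to 59.9% for genotype in BMM, from 49.5% to 62.8% and from 50.4% to 63.5% for RANKL in flox and KO cells, and from 56.4% to 43.3% for the difference, and it moved the RANKL effect of Plxnb2 from -0.39 to -0.22 in flox and from -0.32 to -0.18 in KO cells. Plxnd1 also passed for genotype in OC with the 2 OC groups alone (-0.06, edgeR adjusted p = 0.0247). DESeq2 called 4081, 4175, 9000, 8299 and 2070 genes over all, against 5203, 5382, 9747, 9182 and 2849 with edgeR. Plxna4 had 24 to 39 counts in each BMM library, and the 95% interval of its genotype change there was -0.74 to 0.13.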
